A study of Homo sapiens with 6 samples.

Results

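The genes described here take up, store, release and recycle iron: the transferrin receptor TFRC, the iron transporter SLC11A2, the ferrireductase STEAP3, the ferritin chains FTL and FTH1, the ferritin receptor NCOA4, the iron exporter SLC40A1, the iron regulatory proteins ACO1 and IREB2, and the haem oxygenase HMOX1. They were followed in Kasumi-1, an established human acute myeloid leukaemia line with the t(8;21) translocation, after 20 nM homoharringtonine (HHT) or vehicle for 24 h, on 3 one-colour Affymetrix arrays per condition. HHT is a plant alkaloid that stops translation elongation, and the series title links it to MYC expression. Both groups were the same cell line in the same medium, so the drug was the labelled difference, and the labels do not say whether the 3 arrays of a group came from separate cultures. If they did not, the p-values below hold only for technical spread.

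A member was every probe set whose platform annotation gave 1 of the 10 genes as its only symbol. This found 20 probe sets for 8 genes. FTH1 and IREB2 had none and were not analysed here. All 20 were among the 32768 probe sets tested, which are those with a mean over all 6 arrays above a log2 signal of 4.80. Each gene is represented by its probe set of highest mean, and the others are given beside it.

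Iron reaches most cells bound to transferrin, which TFRC carries into the endosome. There STEAP3 reduces the iron and SLC11A2 (DMT1) moves it to the cytosol. Surplus iron is held in a ferritin shell of heavy and light chains, which NCOA4 delivers to lysosomes when iron is needed, and SLC40A1 (ferroportin) is the known cellular iron exporter. HMOX1 opens the haem ring and frees its iron. ACO1 and IREB2 bind iron-responsive elements (IREs), short RNA hairpins, when iron is scarce. Bound at the 5' end of an mRNA such as FTL they block its translation, and at the 3' end of TFRC mRNA they slow its decay. TFRC is also a known target of MYC.

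The loop of the 5' IRE is shown for FTL because the IRE is the hairpin through which ferritin is read by the regulatory proteins. The loop lies within the first 50 bases after the transcript start, at base 39, with its letters CAGTGN in capitals. The stretch is DNA of the sense strand from RefSeq (GRCh38.p14, plus strand, chr19:48965329-48965358). It is the last 30 bases of the window, which ends shortly after the loop, so it need not hold the whole hairpin.
FTL: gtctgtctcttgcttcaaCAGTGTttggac
These loop letters were in 6.36% of all 35116 promoter windows of that table over the same 50 bases on the sense strand, so the letters alone do not mark an IRE. Among the 8 member genes with a window they were also found in NCOA4, as CAGTGC in a single window of its 2, and in no other member. The rest of each mRNA, further in or at its 3' end, was not searched. A member without the letters here may therefore still carry an IRE. The 250 bases before the start are shown for TFRC (minus strand, chr3:196082091-196082340) and SLC40A1 (minus strand, chr2:189580787-189581036), the 2 members that fell under every setting tried.
TFRC: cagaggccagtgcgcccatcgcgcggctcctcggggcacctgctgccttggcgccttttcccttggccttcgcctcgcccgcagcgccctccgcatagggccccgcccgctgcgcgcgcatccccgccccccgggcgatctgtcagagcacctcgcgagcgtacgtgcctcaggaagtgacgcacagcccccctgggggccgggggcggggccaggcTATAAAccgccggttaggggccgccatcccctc
SLC40A1: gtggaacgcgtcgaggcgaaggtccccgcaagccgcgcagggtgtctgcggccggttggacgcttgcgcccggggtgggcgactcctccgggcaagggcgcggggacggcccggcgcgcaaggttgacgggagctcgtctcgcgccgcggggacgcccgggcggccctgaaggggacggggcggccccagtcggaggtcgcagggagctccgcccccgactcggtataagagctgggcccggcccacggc
Capitals mark the TATA box letters TATAAA, found in TFRC at position -33 from the start and in 10.72% of all windows on either strand. The letters CACGTG (E-box, read by MYC and MAX, 6.34% of windows) and TGACNNNGC (antioxidant response element, read by NRF2 with small MAF proteins, 10.91%) were in neither sequence on either strand. Sites outside these 250 bases were not looked for, so this does not say that the genes lack them. Of the 10 genes, 8 had a window in the table, and HMOX1 and FTH1 did not.

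Of the 8 genes measured, 3 rose after HHT (HMOX1, SLC11A2 and NCOA4), 4 fell (SLC40A1, TFRC, STEAP3 and FTL) and ACO1 was not called, at an adjusted p under 0.05 in limma's test over all probe sets. Across the array 53.8% of genes were called, 29.6% higher and 24.2% lower, so 7 of 8 called is read against a background in which most genes moved. The groups did not overlap for 7 of the 8 genes, as for 62.2% of all genes. Of the 20 probe sets 6 rose, 7 fell and 7 were not called, where 46.3% of all probe sets were called, 23.0% higher and 23.3% lower. Their median change was -0.20, and that of the 8 genes was -0.13, against 0 for all genes.

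The call or direction of some of these changes, those of STEAP3 and FTL, depends on the scaling of the arrays. The 18 probe sets of the hybridisation controls, which read bacterial and phage transcripts spiked into every sample, were all lower in HHT, with means of 11.98 ± 0.0282 in vehicle and 11.70 ± 0.0598 in HHT (SD, n = 3; exact permutation p = 0.1, two-sided, the smallest that 3 against 3 allows). Array medians lay between 5.82 and 5.96 in vehicle and between 5.53 and 5.77 in HHT. Setting the medians equal moved the median change of all genes to 0.24, and setting the controls equal moved it to 0.28. Under either scaling 3 members rose and 2 fell, and after quantile normalization 4 rose and 3 fell. HMOX1, SLC11A2, NCOA4, TFRC and SLC40A1 kept their direction and their call under these 3 scalings. STEAP3 was not called under 2 of them, and FTL turned its sign under all 3.

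**Figure D1:**
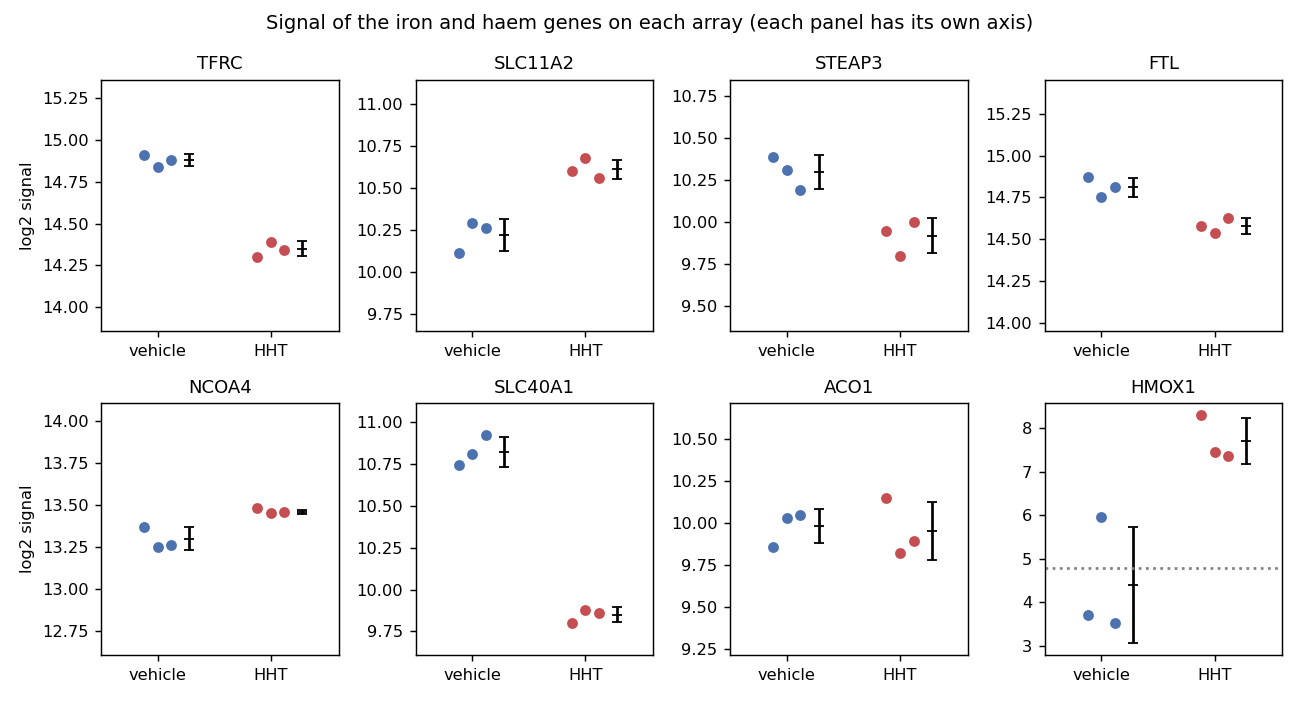
Log2 signal of the representative probe set of each of the 8 genes on the 3 vehicle and 3 HHT arrays, with the mean and SD beside the points. Each panel has its own axis, and the dotted line in the HMOX1 panel is the filter level of 4.80. HMOX1, SLC11A2 and NCOA4 lie higher in HHT without overlap, TFRC, STEAP3, FTL and SLC40A1 lower, and ACO1 overlaps.

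TFRC, which brings transferrin-bound iron into the cell, fell. Its log2 signal was 14.91, 14.84 and 14.88 on the vehicle arrays and 14.30, 14.39 and 14.34 on the HHT arrays. All HHT arrays lay below all vehicle arrays. The mean went from 14.88 ± 0.0351 to 14.35 ± 0.0460 (SD, n = 3), a change of -0.53 (SE 0.0472, adjusted p = 6.04e-06, limma), or a 1.44-fold lower signal. The size depended on the scaling more than the direction did: TFRC was called at -0.29 with equal medians, at -0.25 with the hybridisation controls set equal and at -0.15 after quantile normalization. MYC, the gene of the series title, fell by 4.40 in the same fit (SE 0.0958, adjusted p = 5.29e-09). Whether the change in TFRC is linked to that in MYC was not tested.

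The other TFRC probe sets differ widely in signal. The second bright one gave 14.56, 14.30 and 14.27 in vehicle and 13.64, 13.60 and 13.63 in HHT. It fell by 0.75 (SE 0.0729, adjusted p = 1.10e-05, limma), again without overlap, and by 0.39 after quantile normalization. A dimmer one, with means of 6.94 ± 0.427 and 5.82 ± 0.728, fell by 1.12 (adjusted p = 0.0361, limma), but its groups overlapped. Leaving out HHT replicate 1 or 3, or vehicle replicate 1 or 2, ended that call (adjusted p from 0.0739 to 0.132), as did setting the medians or the hybridisation controls equal, or quantile normalization. The remaining 2, with group means between 4.71 and 5.27, changed by -0.49 and 0.28 and were not called. TFRC thus rests on its 2 bright probe sets, which went the same way by different amounts.

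STEAP3, which reduces iron in the endosome before transport, was lower as deposited. Vehicle arrays read 10.39, 10.31 and 10.19, and HHT arrays 9.95, 9.80 and 10.00. The groups were separate, with a change of -0.38 (SE 0.0896, adjusted p = 0.00512, limma), or a 1.30-fold lower signal. With equal medians the change was -0.14 (adjusted p = 0.384), and scaling to the hybridisation controls gave -0.10 (adjusted p = 0.488), neither called. After quantile normalization it was -0.49 and called (adjusted p = 0.00136, limma). Its second probe set changed by -0.34 with no overlap between groups and was not called (adjusted p = 0.134).

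SLC11A2, the transporter that moves iron across the endosomal membrane, rose. Its signal was 10.11, 10.29 and 10.26 in vehicle and 10.60, 10.68 and 10.56 in HHT. Every HHT array was above every vehicle array, and the mean went from 10.22 ± 0.0956 to 10.61 ± 0.0580, a change of 0.39 (SE 0.0795, adjusted p = 0.00196, limma). The rise was called under the other scalings too, at 0.29 after quantile normalization, 0.63 with equal medians and 0.68 relative to the hybridisation controls.

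SLC11A2 had 5 probe sets, of which 4 rose. A second read 8.53, 8.63 and 8.60 in vehicle and 9.54, 9.69 and 9.09 in HHT, a rise of 0.85 (SE 0.149, adjusted p = 0.000762). Another read 7.52, 8.32 and 7.87 against 9.24, 9.31 and 9.16 and had the largest rise of the gene, 1.34 (SE 0.182, adjusted p = 0.000134), or 2.53-fold. Both separated the groups. The probe set with means of 9.01 and 9.56 rose by 0.55 (adjusted p = 0.0153, limma) with overlapping groups, and its call ended when HHT replicate 2 or 3, or vehicle replicate 1 or 2, was left out (adjusted p from 0.0559 to 0.0695). The dimmest, with means of 6.62 and 6.06, changed by -0.56 and was not called (adjusted p = 0.174). The rises at the 4 called probe sets ran from 0.39 to 1.34, and which SLC11A2 transcripts each of them reads was not analysed here.

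**Figure D2:**
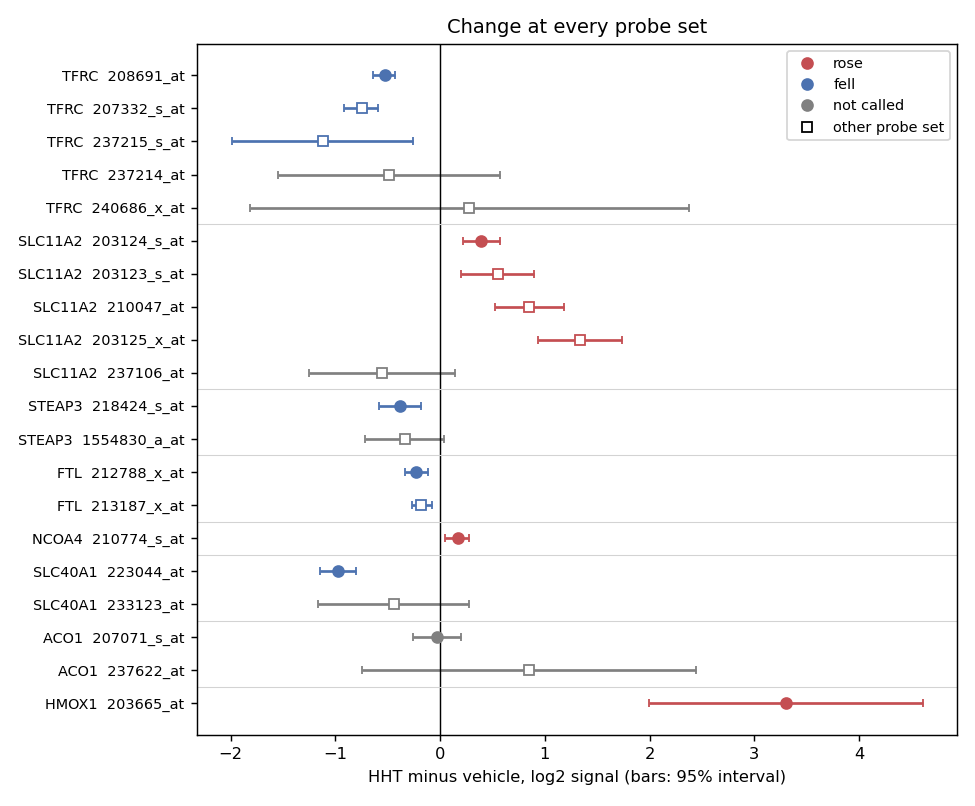
Difference in log2 signal, HHT minus vehicle, at each of the 20 probe sets, grouped by gene, with the 95% interval from the fit. Filled circles are the representative probe set of a gene, open squares are the others, and colour gives the call. The 4 called SLC11A2 probe sets lie to the right of 0 and the 3 called TFRC probe sets to the left, while the intervals of the uncalled probe sets all include 0.

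FTL, the ferritin light chain, changed least among the called members that were lower. Its brighter probe set read 14.87, 14.75 and 14.81 in vehicle and 14.58, 14.54 and 14.63 in HHT, a change of -0.23 (SE 0.0497, adjusted p = 0.00341, limma). The second read 14.52, 14.49 and 14.50 against 14.32, 14.33 and 14.34, a change of -0.18 (SE 0.0434, adjusted p = 0.00658). Both separated the groups, but the direction was not kept. The brighter one was called higher after quantile normalization (0.14, adjusted p = 0.0148), and stood at 0.01 with equal medians and at 0.06 relative to the hybridisation controls. No direction of FTL mRNA can therefore be given, and both probe sets are of a type (x_at) that can also bind related sequences.

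FTH1 itself was not analysed here. The pseudogene FTH1P5, a copy of FTH1 named after its values were seen, had a probe set that read 13.59, 13.66 and 13.65 in vehicle and 13.85, 13.83 and 13.88 in HHT. It rose by 0.22 (SE 0.0481, adjusted p = 0.00347, limma) and was higher under the other 3 scalings as well. A fit with no variance trend did not call it (adjusted p = 0.0646). Signal from FTH1 mRNA and from its copies cannot be told apart on such a probe set.

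NCOA4, the receptor that carries ferritin to lysosomes, was slightly higher. Its only probe set read 13.37, 13.25 and 13.26 in vehicle and 13.48, 13.45 and 13.46 in HHT. The groups did not overlap, and the change was 0.17 (SE 0.0527, adjusted p = 0.0235, limma), or 1.12-fold. The call was lost without vehicle replicate 2 or 3 or any 1 of the 3 HHT replicates (adjusted p from 0.0602 to 0.0805) and without a variance trend (adjusted p = 0.143). It was larger and called under the other scalings: 0.46 after quantile normalization, 0.45 relative to the hybridisation controls and 0.41 with equal medians.

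SLC40A1, the iron exporter, had the largest fall of the 8 genes. Vehicle arrays read 10.74, 10.81 and 10.92 and HHT arrays 9.80, 9.88 and 9.86. The HHT arrays all lay lower, with means of 10.82 ± 0.0909 and 9.85 ± 0.0431. The change was -0.98 (SE 0.0785, adjusted p = 3.04e-06, limma), a 1.97-fold lower signal, and 8.42% of all genes had a lower change. It ranged from -1.08 to -0.69 over 16 alternatives and was called in each. A dim second probe set, with means of 6.36 and 5.92, changed by -0.44 with overlapping groups and was not called (adjusted p = 0.300).

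**Figure D3:**
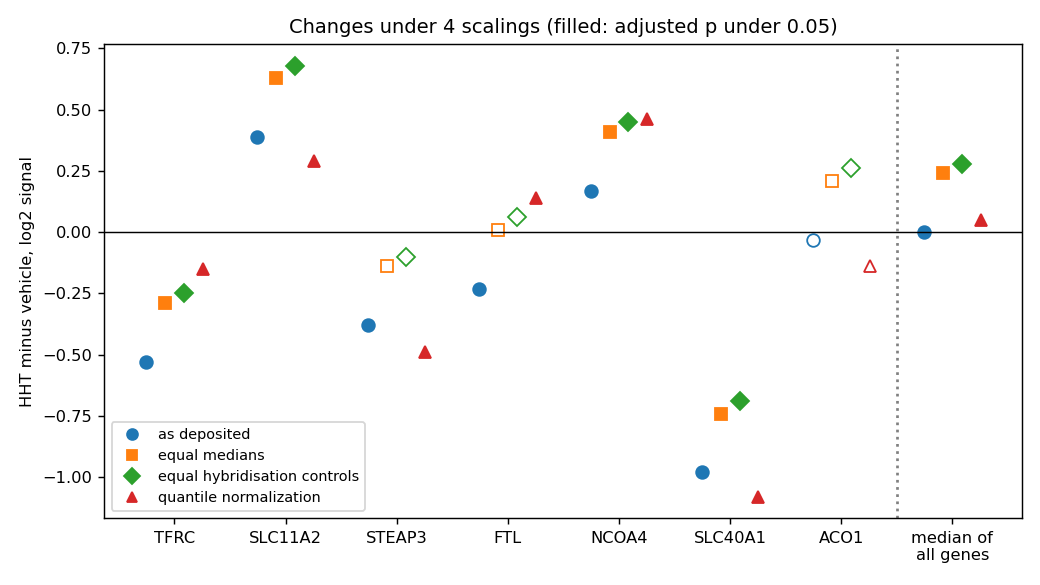
Change in log2 signal, HHT minus vehicle, of the 7 members other than HMOX1 and of the median of all genes under 4 scalings. Filled symbols of members have an adjusted p under 0.05 in limma's test. TFRC, SLC40A1 and STEAP3 stay below 0 and SLC11A2 and NCOA4 above it, while FTL and ACO1 cross it.

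ACO1, the iron regulatory protein that is a cytosolic aconitase when it holds an iron-sulfur cluster, was not called. It read 9.86, 10.03 and 10.05 in vehicle and 10.15, 9.82 and 9.89 in HHT, with overlap in both directions. The change was -0.03 (95% interval -0.26 to 0.20, adjusted p = 0.844, limma). Setting the medians equal turned it to 0.21 and setting the hybridisation controls equal to 0.26, neither called. Its dim second probe set read 5.01, 5.42 and 2.80 in vehicle and 5.25, 5.20 and 5.32 in HHT and was not called (adjusted p = 0.367). The interval of the brighter probe set leaves room for a small change in either direction.

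HMOX1, which degrades haem to biliverdin, carbon monoxide and iron, had the largest rise. Its single probe set read 3.72, 5.95 and 3.54 in vehicle and 8.30, 7.45 and 7.36 in HHT. All HHT arrays were above all vehicle arrays, of which 2 lay below the filter level of 4.80. The means were 4.40 ± 1.34 and 7.70 ± 0.521. The fitted change was 3.30 (SE 0.589, adjusted p = 0.000884, limma). It was called in each of the 15 alternatives that tested it, but its size was not fixed: it was 1.61 with a pseudocount of 64, which damps changes from low signals, and lay between 2.87 and 4.07 with 1 array left out. With arrays below the filter level set to it, the difference in means came to 5.76-fold, and as deposited to 9.86-fold. HMOX1 passed the filter through its HHT arrays, and it was not among the probe sets tested with a filter of 60%. The level of 4.80 is that of the filter and not a measured detection limit.

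Differences between members on the same array do not move when all signals of an array are multiplied by 1 factor, but they do under quantile normalization. These 4 pairs were chosen after the values were seen, and for each an exact permutation test gives p = 0.1 (two-sided), the smallest possible. TFRC minus FTL was 0.04, 0.09 and 0.08 in vehicle and -0.28, -0.15 and -0.29 in HHT, a shift of -0.30. SLC11A2 minus TFRC shifted by 0.93, NCOA4 minus FTL by 0.39 and SLC40A1 minus FTL by -0.75, each without overlap between groups. After quantile normalization the 4 shifts, in the same order, were -0.29, 0.44, 0.33 and -1.22. TFRC and SLC40A1 were lower relative to FTL, and SLC11A2 higher relative to TFRC, as deposited and after quantile normalization, with sizes that differed. Scaling to the medians or to the hybridisation controls multiplies each array by 1 factor, so it could not change these shifts. These shifts show unequal change and do not say that any 1 gene stayed constant.

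Of 15 other genes of iron handling tested, 8 fell and 2 rose as deposited, with a median of -0.48. Of all genes, 24.2% fell and 29.6% rose. These shares of all genes were 12.7% and 37.3% with equal medians, 12.8% and 41.6% relative to the hybridisation controls, and 22.9% and 29.9% after quantile normalization, and each list below is set against them. Of the 15 genes, 5 fell and 2 rose under either scaling, to the medians (median -0.24) or to the hybridisation controls (median -0.20). After quantile normalization 8 fell and 2 rose (median -0.21). TFR2, the second transferrin receptor, read 9.53, 9.49 and 9.30 in vehicle and 7.27, 7.51 and 7.40 in HHT and fell by 2.04 (SE 0.129, adjusted p = 6.19e-07, limma). SLC39A14, which takes up iron not bound to transferrin, read 12.79, 12.80 and 12.74 against 11.18, 11.19 and 11.09 and fell by 1.62 (SE 0.0586). With probe sets averaged per gene the falls were smaller, at -1.27 for TFR2 and -0.92 for SLC39A14, both called. A second TFR2 probe set fell by 1.43, and the others of the 2 genes were not called or not tested. The 2 that rose, named after their values were seen, were CYBRD1, a ferrireductase (0.75, SE 0.0959), and FBXL5, the iron-sensing ubiquitin ligase subunit that marks IREB2 protein for degradation (0.57, SE 0.0716). A second probe set of CYBRD1, at 0.05, was not called, which left a mean of 0.40, and a second one of FBXL5 rose by 0.73. Both rises were called under the other 3 scalings.

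Of 10 haem synthesis genes 4 were lower and 2 higher, where 24.2% of all genes were lower and 29.6% higher, with a median of -0.13. The split was 3 and 3 with equal medians, 3 lower and 4 higher with equal hybridisation controls and 6 lower and 2 higher after quantile normalization. ABCB10, a mitochondrial membrane transporter needed for haem synthesis, fell by 1.34 (SE 0.0756) and UROD, a cytosolic enzyme of the pathway, fell by 0.85 (SE 0.0579). The 2 higher genes, named after their values were seen, encode the enzymes of its first and second steps, ALAS1 (0.53, adjusted p = 0.000345, limma) and ALAD (0.76, adjusted p = 0.000106). ALAS1 and ALAD were called higher, and ABCB10 and UROD lower, under all 4 scalings. Relative to the hybridisation controls UROD was -0.56 and ALAS1 0.82, and the mean of the ALAD probe sets was 0.45.

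Of 8 other genes of haem breakdown and transport, 2 rose and 2 fell (29.6% and 24.2% of all genes), with a median of -0.20. HMOX2, the constitutive haem oxygenase, fell by 0.58 (SE 0.101, adjusted p = 0.000759, limma), while HMOX1 rose. Its call was lost with equal hybridisation controls (-0.29, adjusted p = 0.0644). FLVCR2, a membrane transporter studied for haem, rose by 1.08 (SE 0.112), but the mean of its probe sets changed by 0.01 (adjusted p = 0.977). BLVRB, a biliverdin reductase, rose by 0.44 (SE 0.0724), and FLVCR1 fell by 0.36 (SE 0.0654). BLVRA, the other biliverdin reductase of the list, changed by -0.03 and was not called (adjusted p = 0.753, limma). FLVCR1 was not called with equal medians or equal hybridisation controls. BLVRB, BLVRA and FLVCR1 were named after their values were seen. The list had 3 higher and 1 lower with equal medians, and 4 higher and 0 lower with equal hybridisation controls.

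Among transcription factors and regulators known to act on HMOX1 and ferritin genes, 2 of 5 rose and 1 fell, beside 29.6% and 24.2% of all genes. MAFF, a small MAF protein, read 7.25, 7.54 and 6.25 in vehicle and 8.57, 8.41 and 8.23 in HHT and rose by 1.39 (SE 0.288, adjusted p = 0.00236, limma), but the mean of its probe sets was not called (0.59, adjusted p = 0.0661). KEAP1, which marks NRF2 protein for degradation, fell by 0.60 (SE 0.0791), and by 0.31 relative to the hybridisation controls. BACH1, a repressor of HMOX1, rose by 0.54 (SE 0.120), a call also lost in the mean of its probe sets (0.41, adjusted p = 0.21), and NFE2L2, the gene of NRF2, changed by -0.12 and was not called (adjusted p = 0.143), with its sign turned under 2 scalings. BACH1 and NFE2L2 were named after their values were seen. After quantile normalization 2 rose and 2 fell.

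Of 8 other known NRF2 targets tested with limma, 0 rose and 4 fell as deposited, beside 29.6% and 24.2% of all genes, with a median of -0.26. At an unadjusted p under 0.05 the counts were the same. The scaling changed the split, to 0 higher and 2 lower with equal medians (2 and 3 at an unadjusted p under 0.05) and to 3 and 3 relative to the hybridisation controls, where 41.6% of all genes were higher and 12.8% lower. PRDX1, a peroxiredoxin, read 14.10, 13.85 and 13.92 in vehicle and 12.56, 12.56 and 12.58 in HHT and fell by 1.39 (SE 0.0662), and SLC7A11, the cystine importer, fell by 1.09 (SE 0.0916), or by 0.65 in the mean of its probe sets. Of 7 genes of ferroptosis control, an iron-dependent form of cell death, 3 fell and 1 rose (24.2% and 29.6% of all genes), with a median of 0.07. The gene that rose was GCH1, which makes a radical-trapping cofactor (0.76, SE 0.0771), and SLC7A11 led those that fell. With equal medians 2 fell and 1 rose, and with equal hybridisation controls 2 fell and 2 rose. LPCAT3, named after its values were seen, was among those that fell as deposited (-0.73). Its second probe set was called higher (0.66, adjusted p = 0.00479, limma).

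Iron-sulfur cluster assembly, which consumes mitochondrial iron, had 7 of 18 genes higher and 6 lower, where 29.6% of all genes were higher and 24.2% lower, and a median of 0.05. With equal medians it was 8 higher and 2 lower (37.3% and 12.7% of all genes), relative to the hybridisation controls 10 and 3 (41.6% and 12.8%), and after quantile normalization 7 and 7 (29.9% and 22.9%). IBA57, which acts late in the mitochondrial pathway, rose by 1.42 (SE 0.150; 0.93 in the mean of its probe sets), and GLRX5, which carries clusters between the early and the late machinery, fell by 1.39 (SE 0.0803). Of the other genes known for an IRE in their mRNA, CDC14A and EPAS1 were tested. CDC14A, a phosphatase gene, rose by 0.71 (SE 0.143, adjusted p = 0.00208, limma), a call lost in the mean of its probe sets (0.22, adjusted p = 0.367), and EPAS1 changed by 0.06 (adjusted p = 0.773).

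**Figure D4:**
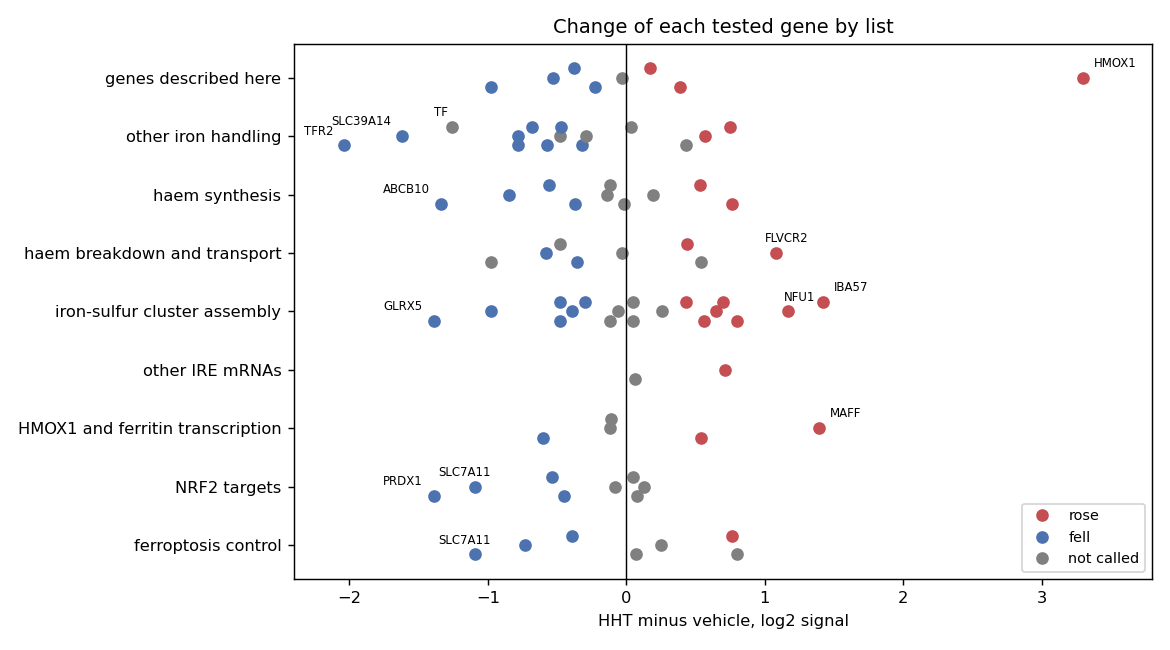
Change in log2 signal, HHT minus vehicle, of each tested gene in the 9 lists, with colour for the call and names for changes beyond 1 in size. TFR2 at -2.04 and HMOX1 at 3.30 lie at the ends, and the iron-sulfur cluster list spreads to both sides of 0.

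Markers of the cells were read on the same arrays. Of 6 markers of myeloid blasts 5 had a probe set. PTPRC was higher (0.77), and KIT (-0.62), CD34 (-1.18) and MPO (-1.76) were lower. The brightest probe set of RUNX1T1 was not called (-0.03, adjusted p = 0.679, limma). A dim one, with means of 6.31 and 4.78, was called lower (-1.53, adjusted p = 0.0232), and its others were not called. At the representative probe sets, the split of 1 higher and 3 lower markers stands beside 29.6% and 24.2% of all genes. Equal medians left it unchanged, while quantile normalization gave 2 higher and 3 lower. Scaling to the hybridisation controls also gave 2 and 3. KIT was -0.23 after quantile normalization. Of 5 erythroid markers with a probe set, only KLF1 was called in limma's test (-0.82, adjusted p = 0.0497), and it was not called under the other 3 scalings or with any 1 of the 6 arrays left out. HBB had means of 6.46 ± 0.366 and 6.21 ± 0.336. Of 5 macrophage markers 4 lay below the filter level in their mean over all arrays, and CSF1R fell by 1.16 (SE 0.350), a call lost relative to the hybridisation controls (adjusted p = 0.0771), without vehicle replicate 1 (0.0577) and without HHT replicate 3 (0.0599). The part of these differences in the iron genes was not tested. In bulk RNA, fewer cells of a type and less RNA per cell cannot be told apart.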

How the data were processed

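The values deposited by the authors are log2 signals of 54675 probe sets on 6 arrays. The submitters' processing notes name MAS5, with no version, and no genome build is given in the sources used here. Antilog means after trimming were 500.06 to 500.07 on every array, so each array had been scaled to 1 level. No pseudocount was added. The 62 control probe sets and the 40% of the others with the lowest mean were left out. The remaining 32768 probe sets (13572 genes) were fitted in R 4.3.3 by lmFit and eBayes of limma 3.58.1, with a variance trend, with Benjamini-Hochberg adjustment over all of them, and rose and fell mean an adjusted p under 0.05. Gene symbols came from the platform annotation, updated through RefSeq of GRCh38.p14: 41091 probe sets had 1 gene, 1801 several and 11721 none. Errors are SE for changes and SD for means, and the number of arrays limits precision. The script was tested on simulated data. Named genes are the 8 measured members, MYC and, in each other list, the 2 called genes with the largest change. Markers, those said to be named later and EPAS1, the uncalled gene tested beside CDC14A, were named outside that rule. Members, lists and alternatives were chosen with earlier results of these data known. Alternatives were pseudocounts of 1 and 64, the 3 other scalings, no filter or one of 60%, no variance trend, a replicate block, the mean of probe sets, and leaving out each array.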

Additional observations from a re-analysis of the deposited data

How the results depend on the processing

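With equal medians 2 member genes, 3 of their probe sets, 15 genes of the related lists and 1718 of all genes fell. With equal hybridisation controls these were 2, 3, 16 and 1741, and 28 genes of the related lists and 5640 of all genes rose. After quantile normalization 4 member probe sets fell. As deposited, 4 member genes, 7 probe sets, 27 related genes and 3280 of all genes fell, and 17 related genes and 4017 of all genes rose. FTL turned sign with equal medians (0.01, and 0.06 at its second probe set), equal hybridisation controls (0.06 and 0.11) and quantile normalization (0.14 and 0.21). ACO1 did with equal medians (0.21), equal hybridisation controls (0.26) and the mean of probe sets (0.41), and ranged from -0.13 to 0.04 with 1 array left out. The dim TFRC probe set at 0.28 was -0.08 with a pseudocount of 64 and ranged from -0.96 to 0.45 with 1 array left out. NFE2L2 turned to 0.12 under equal medians and to 0.16 relative to the hybridisation controls. TFRC and SLC11A2 kept direction and call in 16 of 16 alternatives, as did HMOX1 in the 15 that tested it. FTL and NCOA4 were not called without a variance trend. Same-numbered arrays deviated together weakly or not at all (correlations of 0.065, -0.014 and 0.049), so the numbers are not taken as pairs, and with the replicate block 3 member genes rose and 4 fell. Replicates spread more at low signal (median SD of 0.583 in the dimmest 25% of probe sets tested, 0.0858 in the brightest 25%), which limits what the dim probe sets of TFRC, ACO1 and SLC40A1 can show.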
